A study of Mus musculus with 2 samples.

Results

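A 580 kb stretch of mouse chromosome 12 (mm9, chr12:88810001-89390000), known for a tandem array of genes that resemble Eif1a, was described in the RNA-seq coverage of mouse embryonic stem (ES) cells sorted by a fluorescent reporter. It was chosen because its coverage differed between the sorted populations, so the difference between them is given as a description with no test. Its members are all intervals with a depth above 0 in either track, which number 14495 in tomato+ and 5461 in tomato-. They join into 585 covered blocks, maximal runs of bases covered in either track, of 801091 blocks in the genome. The blocks cover 85906 bases of the cluster, of which 82393 were covered in tomato+ and 23352 in tomato-.

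Both groups are ES cells of a mixed strain with floxed Kdm1a alleles (Kdm1a FL/FL, the gene of the histone demethylase LSD1) and CreERT, a Cre recombinase that tamoxifen switches on. They were grown on gelatin under hygromycin and carry 2C::tomato, a fluorescent reporter under the control of regulatory DNA from MuERV-L, an endogenous retrovirus. The group tomato+ is the sorted fraction with reporter fluorescence and tomato- the fraction without it, with 1 library each. The labels name no clone, and whether the floxed alleles were recombined in these cells is not given in the sources used here. The libraries hold 37059813 alignments (tomato+) and 33833215 alignments (tomato-), and each alignment is 72 bases long. With 1 library per population no difference has a replicate check. The 95% intervals cover counting error only and take each alignment as a separate count. A read listed at several places is counted at each, so the intervals are too narrow where reads are shared.

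eIF1A is a translation initiation factor that binds the small ribosomal subunit and takes part in scanning for the start codon. Mice have the autosomal gene Eif1a, the X-linked gene Eif1ax, and a group of Eif1a-like genes side by side on chromosome 12. Transcripts of Eif1a-like genes are known from the 2-cell embryo, the stage at which MuERV-L is active, and from the rare ES cells that share part of its transcription. In RNA-seq, near-identical genes share reads, so a read can be listed at several of them.

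The annotation at hand is of GRCm38, not of mm9, so no block could be placed in a gene, exon, intron or UTR by coordinates. It was used for names, lengths and letters only. In GRCm38, 20 genes of chromosome 12 hold an Eif1a-like transcript, over 835 kb. The 16 with an annotated coding part have a coding length of 432 bases, and these are 93.7% to 95.1% identical to the coding part of Eif1a and 83.6% to 85.4% identical to that of Eif1ax. Of the 20 genes, 7 have a transcript of 2 exons: Gm8300, Gm4027, Gm21319, BB287469, Gm2016, Gm5662 and Gm5039. Their first exon is 186 to 191 bases long, the intron 1468 to 2249 and the second exon, which holds the coding part, 1575 to 1683. The RefSeq table lists 46 other genes between the outermost of the Eif1a-like genes, of which 8 are protein coding, among them Oog1, known from oocytes, and Pramel51. The nearest genes outside are Gm18624 on the left and Gm18632 on the right, both pseudogenes.

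The letters of Gm8300 (GRCm38, plus strand, from the GENCODE transcripts) are shown because a block of its length is compared below with the places where Gm8300 and Eif1a are most alike. The block was tied to Gm8300 by length, not by sequence. The letters are divided at the edges of the stretches in which 72 bases differ from Eif1a at no more than 3. Capitals mark bases at which Eif1a differs. Positions count from 1 at the first coding base.
Gm8300 coding bases 1 to 98, chr12:87516897-87516994: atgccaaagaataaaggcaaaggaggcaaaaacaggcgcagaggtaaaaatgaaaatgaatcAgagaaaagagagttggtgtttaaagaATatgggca
Gm8300 coding bases 99 to 165, chr12:87516995-87517061: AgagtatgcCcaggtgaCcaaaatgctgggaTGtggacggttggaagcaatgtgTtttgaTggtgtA
Gm8300 coding bases 166 to 389, chr12:87517062-87517285: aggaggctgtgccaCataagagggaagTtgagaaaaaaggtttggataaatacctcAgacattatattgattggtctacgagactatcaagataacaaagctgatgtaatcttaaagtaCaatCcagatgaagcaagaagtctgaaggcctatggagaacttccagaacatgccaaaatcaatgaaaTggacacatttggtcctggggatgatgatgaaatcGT
Differences from Eif1a number 3 in the first stretch of 98 bases, 8 in the 67 bases after it and 8 in the last 224 bases. The higher rate in the middle stretch follows from how the letters were divided and is no result.

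In all, the cluster held 29790 alignments in tomato+ and 17340 in tomato-. As a share of each library this is 1.57-fold higher in tomato+ (95% interval 1.54 to 1.60). This total joins blocks of different kinds. The blocks covered in both populations within 2-fold held 38.6% of the cluster's tomato+ alignments and 72.9% of its tomato- alignments, and without them the ratio was 3.55 (3.44 to 3.67). Of the 585 blocks, 81 held at least 20 alignments in both libraries together. At this minimum, 29 were at least 4-fold higher in tomato+ with an interval above 1, 0 were at least 4-fold lower, 21 were covered in both within 2-fold with at least 50 alignments in each library, and 31 met neither rule. Over all blocks of the genome with the same minimum, 0.980% were at least 4-fold higher and 0.131% at least 4-fold lower. Of the genome's blocks with at least 50 alignments in each library, 99.7% were within 2-fold. The cluster was chosen on this contrast, so nothing is read from its counts against these shares.

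**Figure D1:**
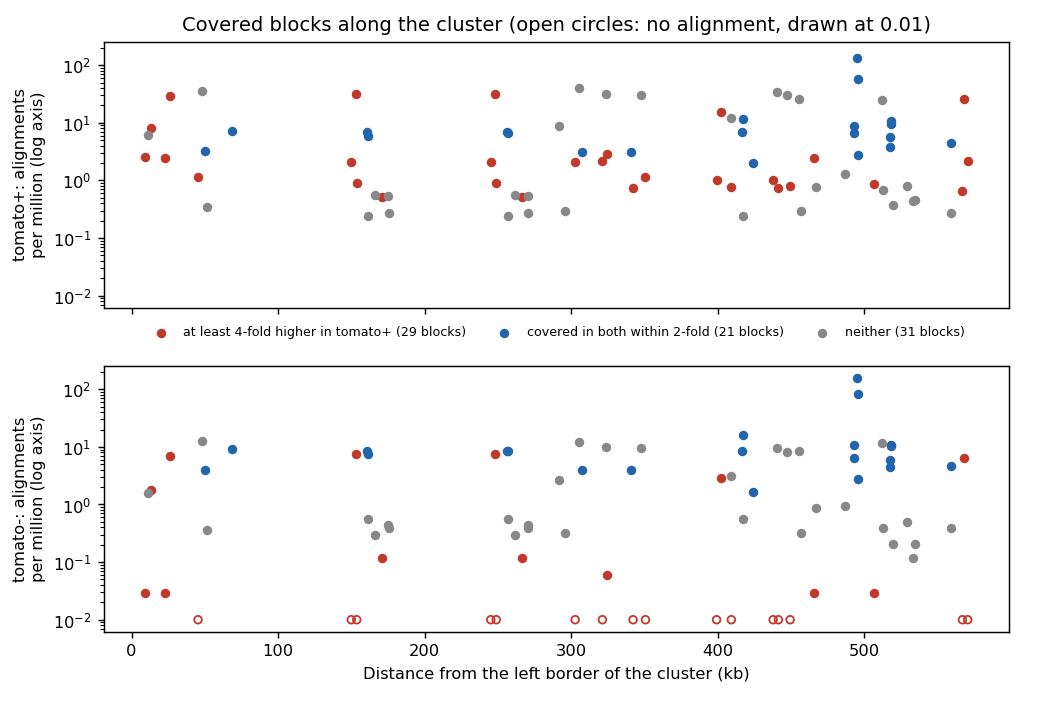
Alignments scaled to library size (logarithmic axis) in tomato+ (top) and tomato- (bottom) of the 81 blocks with at least 20 alignments, by distance from the left border of the cluster in kb. Red points are the 29 blocks at least 4-fold higher in tomato+, blue points the 21 covered in both within 2-fold and grey points the other 31. Open circles at the bottom are the 16 red blocks with no tomato- alignment, and the 2 highest blue points lie beside each other near the right end.

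Of the 29 blocks higher in tomato+, 21 had at most 2 tomato- alignments, 6 had at least 50 alignments in each library and 2 were neither. The first kind had no or nearly no tomato- alignments. In 16 blocks tomato- had 0 alignments against 757 in tomato+, and in 5 more it had 1 or 2 per block, 6 in all, against 413. The block chr12:88819106-88819443 held 95 alignments in tomato+ and 1 in tomato-, a ratio of 86.7 (15.2 to 3461). The block chr12:89275362-89276024 held 91 and 1 (ratio 83.1, 14.5 to 3317). The block chr12:88832734-88832910 held 90 and 1 (ratio 82.2, 14.4 to 3281), and chr12:89134370-89135093 held 105 and 2 (ratio 47.9, 12.9 to 401). These ratios rest on 1 or 2 alignments, which is why their intervals are wide.

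The 6 blocks of the second kind were dense in tomato+ and also well covered in tomato-, with ratios from 4.02 to 5.35. The block chr12:89057439-89058714 held 1158 alignments in tomato+ and 258 in tomato- (ratio 4.10, 3.58 to 4.71). The block chr12:88962220-88963495 held 1154 and 258 (4.08, 3.57 to 4.69), chr12:88835383-88837000 held 1077 and 232 (4.24, 3.67 to 4.91), and chr12:89377280-89378567 held 973 and 221 (4.02, 3.47 to 4.67). The block chr12:89211702-89212206 held 563 and 96 (5.35, 4.31 to 6.72), and chr12:88822149-88823895 held 303 and 61 (4.53, 3.43 to 6.07). In these 6 blocks tomato- covered only part of the bases: 119 of 505 in chr12:89211702-89212206, 394 of 1618 in chr12:88835383-88837000 and 491 of 1276 in chr12:89057439-89058714. Tomato+ covered all bases of each. The other 2 blocks, named here after their values were seen, are chr12:88981043-88981270 and chr12:89076260-89076487. Each held 19 alignments in tomato+ and 4 in tomato- (ratio 4.34, 1.44 to 17.5), with the same start counts at every base, so they are not separate measurements. In all, 4 pairs among the 29 blocks have start counts that differ by at most 1 alignment.

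Just below the limit lay blocks of the same length and depth. The block chr12:89256492-89257580 held 1137 and 273 alignments (ratio 3.80), chr12:89249975-89251237 held 1271 and 325 (3.57), and chr12:88857532-88859215 held 1323 and 422 (2.86). Of 38 blocks with at least 50 alignments in each library, 11 had a ratio from 2 to 4. The 4-fold limit thus runs through a group of long blocks and does not separate them from a different kind.

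**Figure D2:**
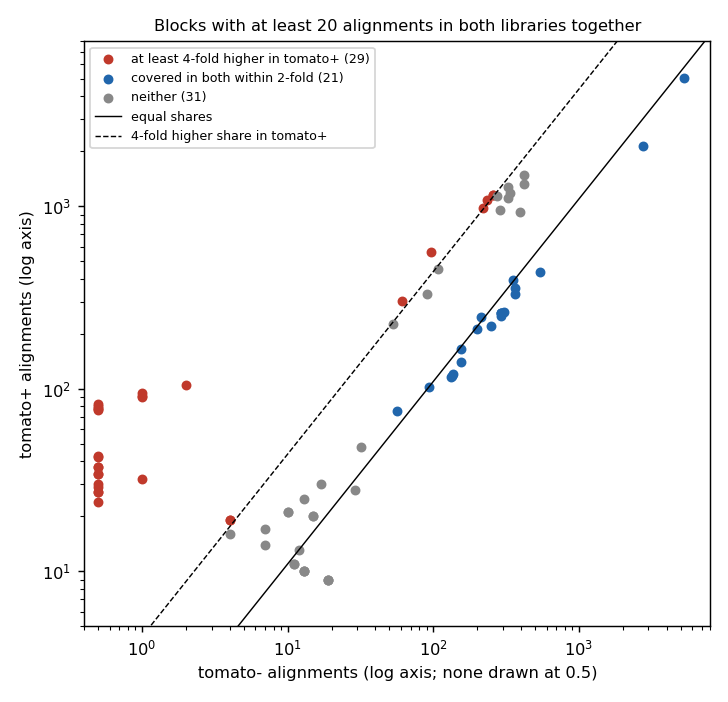
Alignments in tomato+ against alignments in tomato- for the 81 blocks, both axes logarithmic, with lines for equal shares and for a 4-fold higher share in tomato+. The 16 blocks with no tomato- alignment are drawn at 0.5, the long blocks lie along the dashed line, and the 21 blocks covered in both lie along the solid line.

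The blocks covered in both populations were shorter, with a median width of 200 bases against 338 for the blocks higher in tomato+. The 2 densest, chr12:89305041-89305538 and chr12:89305769-89306026, lie beside each other. The first held 5037 alignments in tomato+ and 5251 in tomato-, a ratio of 0.876 (0.842 to 0.910). The second held 2139 and 2767, a ratio of 0.706 (0.667 to 0.747). Together they made up 24.1% of the cluster's tomato+ alignments and 46.2% of its tomato- alignments, more than any other pair of blocks covered in both. Further named blocks were chr12:89227027-89227281 with 438 and 543 alignments (0.736), chr12:89328288-89328499 with 394 and 353 (1.02), chr12:89327995-89328279 with 357 and 366 (0.891), chr12:89302585-89302872 with 330 and 363 (0.830) and chr12:88878813-88878968 with 263 and 308 (0.780). The blocks chr12:88970916-88971045 and chr12:89066133-89066262 each held 259 and 291, and chr12:89226613-89226735 held 259 and 290. Base by base, the start counts of these last 3 blocks are the same, apart from 1 tomato- alignment that the third lacks, so they are not 3 separate measurements. Over the 21 blocks the ratio ran from 0.706 to 1.22, with a median of 0.815.

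The 504 blocks under 20 alignments held 1097 alignments in tomato+ and 244 in tomato- together (ratio 4.10, 3.57 to 4.74). Of these blocks, 84.3% were covered in tomato+ alone and 4.76% in tomato- alone. Blocks of that size in the whole genome had a ratio of 1.21, with 48.8% covered in tomato+ alone and 27.2% in tomato- alone.

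Much of the cluster is repeated. Stretches of 64 bases whose start counts recur at 2 or more places held 49.2% of its tomato+ alignments and 40.4% of its tomato- alignments. The distance at which stretches recurred most often was 95219 bases, with 713 stretches. The block chr12:89057439-89058714 lies 95219 bases right of chr12:88962220-88963495, and 94.4% and 94.7% of their alignments are in repeated stretches. The other dense blocks higher in tomato+ were repeated to a lesser extent. In repeated stretches lay 52.1% of the alignments of chr12:88835383-88837000, 72.9% of those of chr12:89377280-89378567 and 54.5% of those of chr12:89211702-89212206. None of the 267 stretches of chr12:88822149-88823895 recurred. Of the 2193 stretches that lie wholly inside the blocks covered in both, 249 recurred on other chromosomes. Of the 4529 inside the blocks higher in tomato+, 0 did.

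The shape of the long blocks was compared with the annotated genes by length alone. For this, blocks with at most 20 uncovered bases between them were joined. The long part chr12:89249975-89251622 below, for example, joins the blocks chr12:89249975-89251237 and chr12:89251248-89251622. A long block with a short block at the distance of an intron was sought, and 15 such pairs were set against the 7 transcripts of 2 exons, which gives 105 comparisons. In 6 of these both the gap and the long block were within 20 bases of the annotated intron and second exon. Some long blocks recur among the 6, so these are not separate matches. The closest was the pair chr12:89247772-89247949 and chr12:89249975-89251622 with Gm5662, whose gap was 2025 bases against an intron of 2021 and whose long part was 1648 bases against an exon of 1649. Its orientation was the opposite of the strand annotated in GRCm38, as was that of other pairs among the 6. For Gm8300 the pair chr12:88855276-88855461 and chr12:88857532-88859215 had a gap of 2070 against 2078 and a long block of 1684 against 1683. A short block on the other side of the same long block came as close in length, with a gap of 2069, so the lengths do not fix the orientation of that pair. The coverage has blocks of the lengths of the annotated genes. Gaps were sought only from 1400 to 2700 bases, a range around the annotated introns, and how often unrelated blocks come as close was not tested. The label of the cluster was given with the region and was tested neither by these lengths nor by coordinates.

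The long block of Gm8300 length served as a pattern, and places with a like pattern of tomato+ starts were counted as copies (likeness, a cosine of root start counts, of at least 0.65). This gave 12 copies in the cluster, 9 in the plus and 3 in the minus orientation, with a likeness of 0.668 to 1, and 4 more to the right of the cluster. The pattern, the likeness and its limit were chosen after the values were seen. Places below the limit include chr12:89304102-89305784, at 0.610, which holds the densest block covered in both, so the limit separates it from copy 12, at 0.668, by a small margin.

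The 12 copies held 14040 alignments in tomato+ and 3773 in tomato-, a ratio of 3.40 (3.28 to 3.52). The ratio per copy ran from 2.16 to 4.24. Copies were admitted by their tomato+ starts, the library in which the cluster is higher, so these ratios and intervals describe the places so chosen. With a likeness limit of 0.6 the ratio was 1.92. The tomato- alignments were not spread over the block as the tomato+ alignments were. The second exon of each annotated 2-exon gene was therefore compared with the Eif1a transcripts, 72 bases at a time and without gaps, and a start was called matched where at most 3 bases differed. The exon was placed with its first base on the first base of the block.

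In the block of Gm8300 length, 224 of 1612 start positions are matched. They held 398 of the 422 tomato- starts (94.3%) and 714 of the 1322 tomato+ starts (54.0%). At the other 1388 positions there were 24 tomato- starts and 608 tomato+ starts. The tomato- starts formed 2 runs, from 39 bases before the first coding base to base 29 and from base 168 to base 320, with 2 starts after them. Matched positions run from 41 bases before the first coding base to base 27 from base 166 to base 318 and from base 391 to base 393. Both runs begin and end 2 bases to the right of one of the first 2 of these stretches. Of 11 placements of the exon, from 5 bases left to 5 bases right, the one 2 bases to the right held the most tomato- starts (421 of 422) and the others 384 to 408. That placement was found by the tomato- starts, so its near-complete overlap is in part built in, and the values here use the placement without a shift. No position of the exon had 3 or fewer differences from Eif1ax, the fewest being 4.

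**Figure D3:**
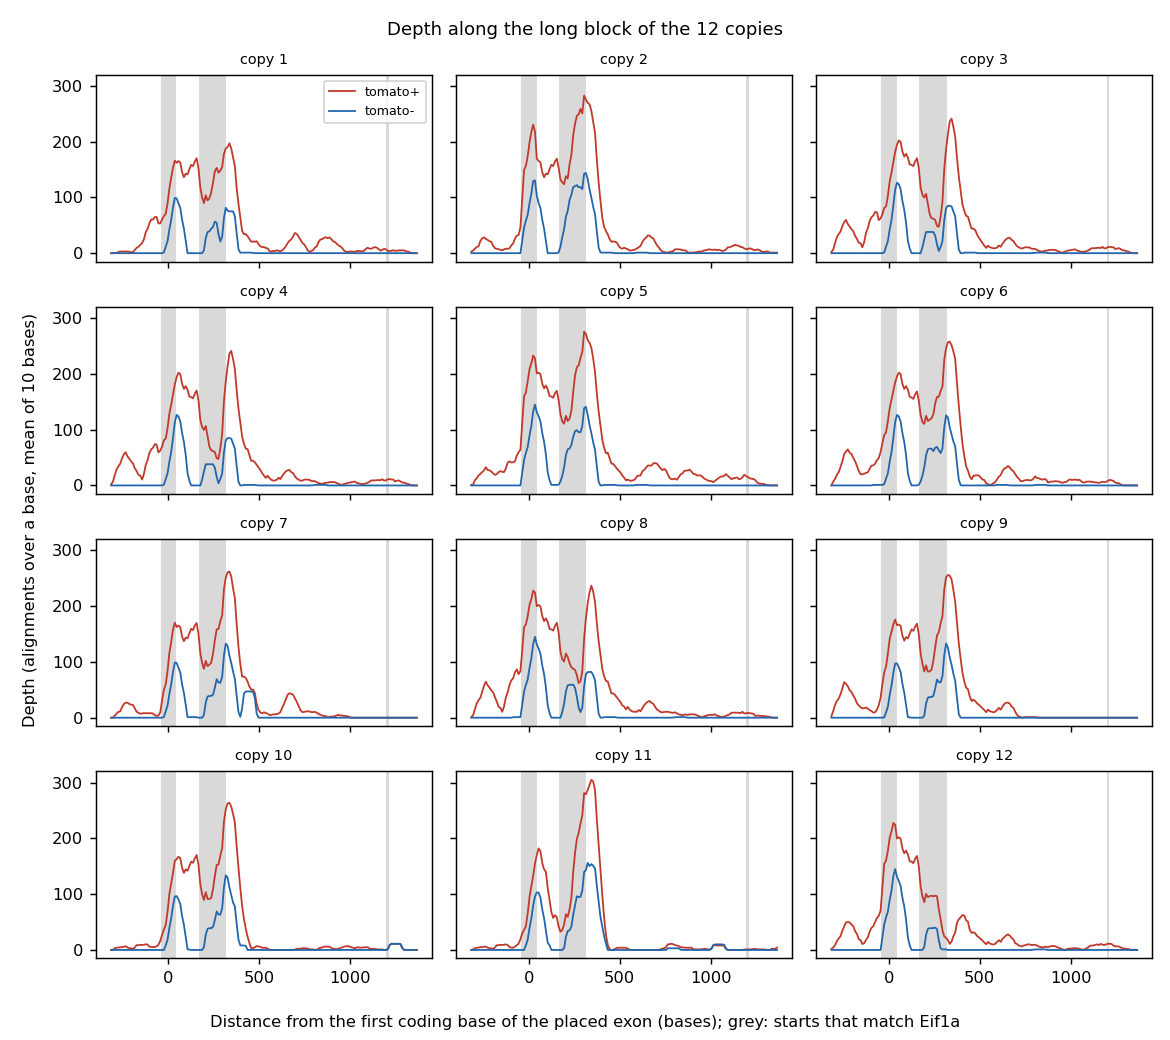
Depth (alignments over a base, mean of 10 bases) of tomato+ (red) and tomato- (blue) along the long block of each of the 12 copies, in the direction of the gene, by distance in bases from the first coding base. Grey bands are start positions that match Eif1a in any of the 7 annotated 2-exon transcripts, and the depth of an alignment reaches 71 bases past its start. Tomato- depth forms peaks at the 2 broad bands and is near 0 over most of the block, while tomato+ depth is above 0 between and beyond them.

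For all 12 copies, the block of Gm8300 length included, a start was then called matched where it was so in any of the 7 transcripts. This rule is wider than the one used above for the block of Gm8300 length. It was taken because the copies' own letters in mm9 were not used here. Over the 12 copies the matched starts held 6829 alignments in tomato+ and 3508 in tomato-, a ratio of 1.78 (1.71 to 1.85). All other starts held 7211 and 265, a ratio of 24.8 (22.0 to 28.2). Matched starts thus made up 93.0% of the tomato- and 48.6% of the tomato+ alignments of the copies. Without the block that gave the pattern, the ratio at other starts was 23.3 (20.6 to 26.4). With each alignment divided by its number of places it was 19.5 (16.7 to 22.8). The size of this ratio depends on how matched starts were set. It was 9.76 with at most 2 differences and 111 with at most 4, 11.7 with the matched starts of Gm8300 alone, and 17.2 to 39.7 over the 11 placements. With a likeness limit of 0.6, which takes in the dense block named above, it was 3.04.

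The copies differed among themselves at the starts that were not matched. Copy 1, chr12:88835356-88837038, held 570 tomato+ and 0 tomato- alignments there, so the lower limit of its ratio was 141, and the ratio came to 173 if the 0 is set to 3. Copy 2, the block of Gm8300 length, held 560 and 4 by this rule, against 608 and 24 with the matched starts of Gm8300 alone. Copies 3 and 4, which lie 95219 bases apart, held 703 and 14 and 707 and 14, and share most of their stretches. Copy 9, chr12:89255848-89257530, held 574 and 1. Copy 7, chr12:89156934-89158616, held 540 and 50, a ratio of 9.86 (7.37 to 13.5), and copy 11, chr12:89321826-89323508, held 370 and 104, a ratio of 3.25 (2.61 to 4.08). Copies 7 and 11 thus held most of the 265 tomato- alignments at such starts. At matched starts the ratio lay between 1.66 and 2.00 in all 12 copies. Reads that match several copies are listed at each, so these 12 ratios are not separate measurements.

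**Figure D4:**
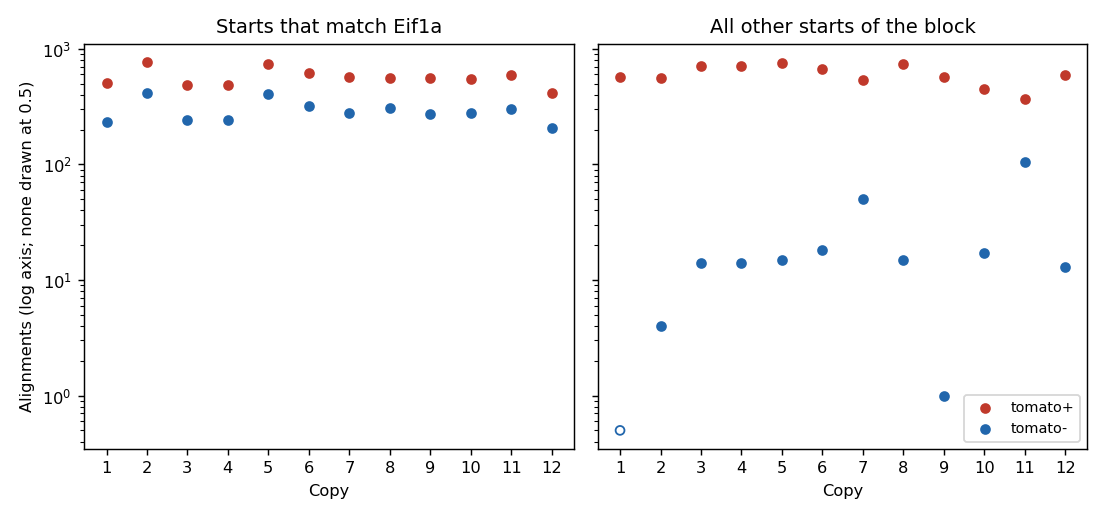
Alignments of tomato+ (red) and tomato- (blue) in each of the 12 copies at starts that match Eif1a (left) and at all other starts of the block (right), on a logarithmic axis. On the left tomato- runs from 208 to 418 per copy, and on the right from 0 to 104, with copies 7 and 11 the highest.

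A short block at the distance of a first exon was found for 10 of the 12 copies, the one nearest the median annotated intron being taken. These blocks held 643 alignments in tomato+ and 1 in tomato-, a ratio of 587 (105 to 23222), and 30 to 90 alignments each in tomato+. Those of copies 3 and 4 share nearly all their starts, so the 10 blocks are not separate measurements. Candidates, joined as for the lengths above, needed at least 20 alignments in both libraries together. With at most 1 in tomato-, each of the 10 passed by its tomato+ alignments alone. A high ratio was thus in part built in and describes only the blocks so chosen. In the 7 annotated transcripts of 2 exons the first exon lies before the coding part. The short blocks were 177 to 502 bases wide, against 186 to 191 for the annotated first exons. Whether they are first exons was not tested. Which gene the tomato- alignments at matched starts came from was not tested, since Eif1a itself could not be counted without an annotation of mm9.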

How the data were processed

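Messenger RNA was sequenced from 2 sorted ES cell populations, with 1 library each. The authors deposited 1 coverage track per library, whose signal is the read depth over each base, not scaled to library size. Per the submitters' processing notes, Bowtie and mm9 were used, and per the file headers the tracks were made from sorted BAM files. Its version and settings were not given in the sources used here. Strand is not kept, and alignments across splice junctions are not in the tracks.

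The depth decoded into ungapped 72-base alignments with 0 negative start counts in both tracks, with Python 3.11.15, numpy 2.4.6, scipy 1.17.1 and Biopython 1.88. The decoding was tested on simulated data. Reads that match several places are listed at each, so totals are alignments, not reads, and they are not independent molecules. The precision follows from 37059813 and 33833215 alignments. The ratio is that of the shares of all alignments, and its 95% interval is the exact Clopper-Pearson one, conditional on the sum of both counts. Against a count of 0, 3 counts stand in.

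Blocks needed 20 alignments in both libraries together for the 4-fold rule and 50 in each for the 2-fold rule. The blocks named are the 10 with most alignments in each class. The cluster, the members and the lists were chosen with earlier results of these data known. The pattern block, the likeness and its limit, the limit of 3 differences, the placement of the exon, the use of all 7 transcripts and the rule for first blocks were chosen after the values were seen. An earlier rule for first blocks took only blocks with few tomato- alignments and was replaced because it selected on the outcome. An earlier version of the copy comparison used the placement with most tomato- starts and was replaced for the same reason. The present rule for first blocks still has a minimum of 20 alignments, which the blocks found passed by tomato+ alone. Cell type markers, proteins and the level of Eif1a were not analysed here, for want of a genome and annotation of mm9.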

Additional observations from a re-analysis of the deposited data

How the results depend on the processing

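No paired analysis was possible because only 1 library was made of either population, and no replicate could be left out. The cluster's ratio of 1.57 was 2.55 with each start position counted 1 time, 1.42 weighted by places and 1.34 without repeated stretches. Chosen after seeing the data, it was 1.52 without the matched starts of the copies and 3.55 without the blocks covered in both. The 29 blocks at least 4-fold higher became 15 at a minimum of 50 alignments, 6 at 200 and 9 when joined over gaps of 1000 bases, and stayed between 23 and 41 under the other alternatives run. The 21 blocks covered in both became 9 with each start position counted 1 time, 10 without repeated stretches, 13 at a minimum of 200 in each library, and 12 when joined over 200 or over 1000 bases. Of 97 values of single named blocks under the alternatives, 73 stayed within the main interval and 23 moved out of it. By highest depth, the 6 dense blocks higher in tomato+ had ratios of 1.29 to 1.85, against 4.02 to 5.35 by alignments. The block chr12:89211702-89212206 fell from 5.35 to 2.55 weighted by places and to 1.94 without repeated stretches. Without these, chr12:88822149-88823895 was unchanged and the other dense blocks rose, chr12:89057439-89058714 to 35 on 77 and 2 alignments. The block chr12:89302585-89302872 turned from 0.830 to 1.09 without repeated stretches, and 3 blocks had no value there. The causes were not tested.

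The split of the copies rests on choices made after the values were seen. For all copies the whole ratio of 3.40 was 1.98 at a likeness limit of 0.5 and 1.92 at 0.6. The matched ratio of 1.78 was 1.60 with at most 2 differences, 2.07 with at most 4, and 1.38 and 1.37 at likeness limits of 0.5 and 0.6. The ratio at other starts, 24.8, was 9.76 and 111 with at most 2 and 4 differences, 11.7 with Gm8300 alone, and 3.23 and 3.04 at likeness limits of 0.5 and 0.6, which take in the dense block covered in both. Placing the exon 5, 4, 3 or 2 bases to the left gave 17.2, 19.5, 19.9 and 19.9, and 2, 3 or 4 bases to the right gave 39.7, 31.9 and 30.1. It stayed above 3 in every setting run, and its size is not fixed by these data. The replaced rule for first blocks gave 9 blocks with 613 and 1 alignments.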
